A study of Mus musculus with 6 samples.

Results

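The complement system was read here through 32 listed genes that encode its components, receptors and regulators, in RNA sequencing of 3 mouse lung samples and 3 samples of the KP cell line. The list was given by gene symbol, but it was chosen with earlier results of these data known. Its counts of called genes are therefore not independent of these data. Of its 32 genes, 31 were among the 20687 gene symbols of the count table and 30 passed the filter on low counts. Mbl2 was not analysed here, and Masp2 stayed under the filter with 7 counts over the lung samples and 0 over the cell line samples.

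All samples are labelled C57BL/6. A lung sample held the pooled lungs of 3 mice, taken 28 days after 100000 KP cells had been given by tail vein and digested with collagenase, and the 3 samples came from separate experiments. The cell line samples were RNA preparations of the KP line in triplicate. The labels do not say whether they came from separate cultures, and p-values here reflect no more than the spread among the samples, which could be technical in the cell line. The genotype of the line is not given in the labels, and no lung without tumour cells was part of the comparison. In such bulk samples, more cells of a type and more RNA per cell cannot be told apart.

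Complement is a cascade of plasma and membrane proteins that marks cells for uptake and can open a pore in their membrane. The classical pathway starts when C1q, with its proteases C1r and C1s, binds antibody or other surfaces, the lectin pathway starts with collectins or ficolins and MASP proteases, and the alternative pathway amplifies through factors B and D and properdin. All of them split C3 and then C5, called Hc in the mouse, after which C6 to C9 assemble the pore. Soluble and membrane regulators hold the cascade in check. Liver makes most of the circulating proteins, while macrophages are known as the main source of C1q and lung epithelial and stromal cells also make several components.

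Most complement genes had far higher levels in the lung samples, 28 days after cell injection, than in cultured KP cells. Levels are given as CPM, a gene's share of its library's counts on a common scale, with library sizes scaled by the TMM method, and a gene was called where the adjusted p of edgeR's quasi-likelihood test fell below 0.05. Of the 30 genes, 27 passed as higher in lung, 1 passed as lower and 2 did not pass. Over all 15212 genes tested, 31.3% were called higher and 17.5% lower, 48.8% in all. The lung and cell line samples did not overlap in 28 of the 30 genes, against 62.2% of all genes, and in 27 of these the lung samples were above, against 35.6%. The median log2 fold change (lung minus cell line) was 5.18 over the 30 genes, 5.13 with genes at 0 to 3 cell line counts set to their count ratio or bound, and 0.08 over all genes. At 1 CPM or more in all 3 samples of a group, 28 genes were detected in lung and 17 in the cell line. Mean levels reached 100 CPM in 14 genes in lung. In the cell line only C3, Cfb, Cr1l and Clu, 4 of the 31, reached a mean of 10 CPM.

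**Figure D1:**
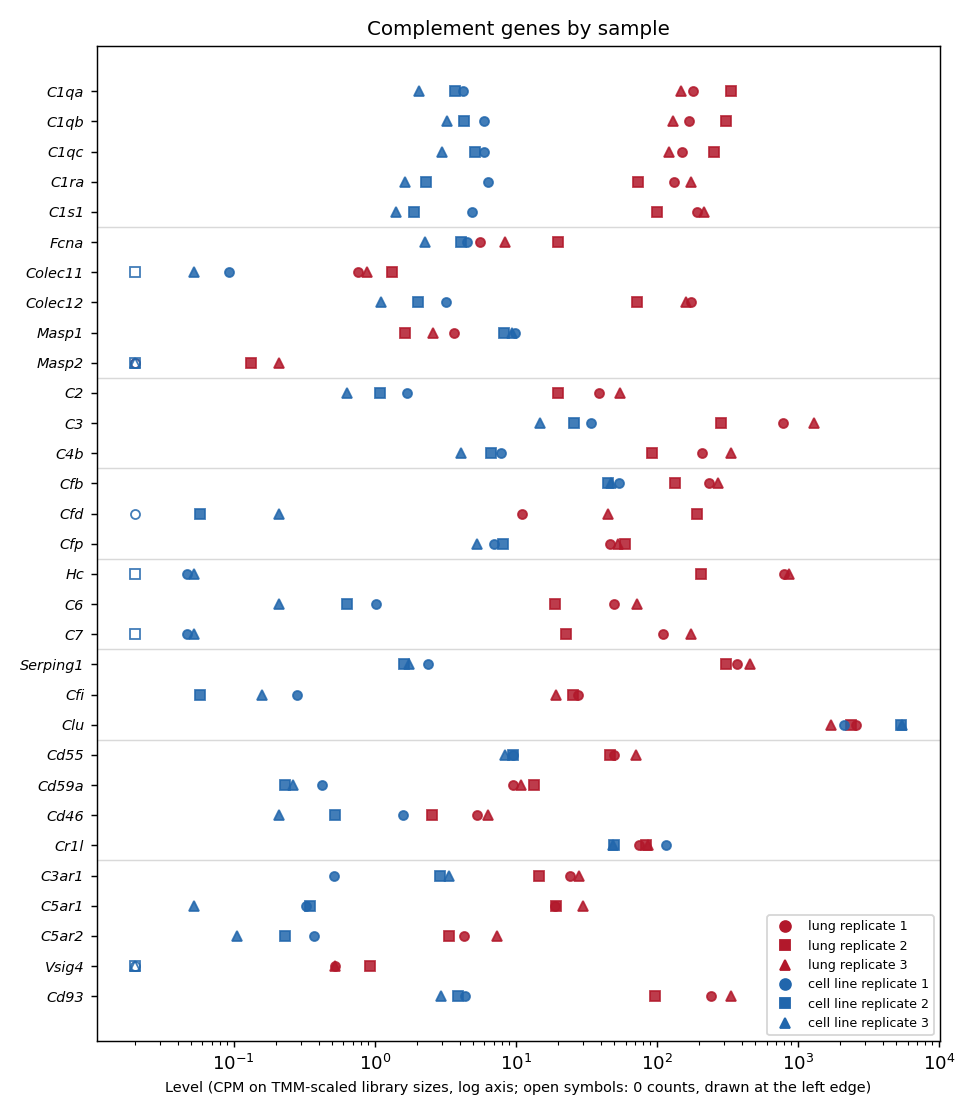
Level of each complement gene in each sample in CPM, on a log axis, with lung in red and the cell line in blue, a symbol for each replicate, and grey lines between roles. Red and blue are apart for most genes, while Clu and Cr1l overlap and Masp1 is higher in the cell line.

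Some facts of the libraries bear on these levels. Estimated counts per sample lay between 17786758 and 22862396, so 3 counts, the most that a count of 0 allows for counting error, came to between 0.120 and 0.173 CPM on the scaled library sizes. Cell line replicate 1 and lung replicate 2 stood apart from the others of their group, with correlations of log2 CPM across genes of 0.964 to 0.965 against 0.991 between cell line replicates 2 and 3, and of 0.908 to 0.936 against 0.98 between lung replicates 1 and 3. In lung replicate 2 short transcripts were high and long ones low. Against replicates 1 and 3 its median log2 difference came to 0.71 over the shortest quartile of genes and -0.96 over the longest. The cell line samples also held leukocyte transcripts, with all 10 B and plasma cell markers at 1 CPM or more and a summed level of 172 to 324 CPM, against 506 to 1136 CPM in lung. Of 7 epithelial markers in the cell line, Krt8 stood at 996 to 3454 CPM, Krt18 at 1181 to 2622, Krt19 at 593 to 862 and Cdh1 at 416 to 466 CPM. Epcam stood at 1.91 to 3.00 CPM, and Cldn4 and Cldn7 lay under 1 CPM.

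The C1 complex genes all rose in lung (5 of 5). C1qa, which encodes the A chain of C1q, stood at 179.9, 336 and 148 CPM in lung replicates 1, 2 and 3 and at 4.25, 3.69 and 2.06 CPM in the cell line replicates in that order. Every lung sample was above every cell line sample, with replicate 2 the highest in lung. The log2 fold change was 6.05 (SE 0.49, edgeR adjusted p = 5.14e-05). C1qb, the B chain, stood at 169, 311 and 129.8 CPM in lung and at 5.97, 4.32 and 3.27 CPM in the cell line. C1qc, the C chain, stood at 150.3, 254 and 122 CPM in lung and at 5.97, 5.13 and 3.00 CPM in the cell line. Both followed the same order of lung samples as C1qa, and their log2 fold changes were 5.49 (SE 0.46) and 5.22 (SE 0.44), with edgeR adjusted p = 6.05e-05 and 5.93e-05.

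The C1q genes are neighbours on mouse chromosome 4 and their products assemble in equal numbers, so their levels were compared per transcript length, as TPM (counts over transcript length, rescaled to a common sum per sample). In lung the means were 372 ± 85.3 TPM for C1qa, 326 ± 80.8 for C1qb and 257 ± 45.6 for C1qc (SD, n = 3). The order was C1qa above C1qb above C1qc in all 3 lung samples, and the ratio of C1qa to C1qc was 1.38, 1.53 and 1.4. In the cell line, where these genes lay at 1.5 to 2.68% of their lung level, that ratio was 0.820, 0.829 and 0.791. The ratio thus did not overlap between the groups, on 39 to 128 counts per gene in each cell line sample. Promoter sequences of C1qb and C1qc are shown because both genes rose and kept the same order of the 3 lung samples. They are the 250 bases before each start site in RefSeq's GRCm38.p6 annotation, on the gene's minus strand, at chr4:136886201-136886450 for C1qb and chr4:136892915-136893164 for C1qc. Capitals mark GAGGAA, the core bound by the myeloid factor PU.1 and other ETS proteins, on either strand.
C1qb: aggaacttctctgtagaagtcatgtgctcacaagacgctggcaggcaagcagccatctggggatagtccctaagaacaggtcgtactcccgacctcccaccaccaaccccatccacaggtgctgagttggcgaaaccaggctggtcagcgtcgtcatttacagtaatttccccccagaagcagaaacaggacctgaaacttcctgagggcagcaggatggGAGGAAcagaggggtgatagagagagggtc
C1qc: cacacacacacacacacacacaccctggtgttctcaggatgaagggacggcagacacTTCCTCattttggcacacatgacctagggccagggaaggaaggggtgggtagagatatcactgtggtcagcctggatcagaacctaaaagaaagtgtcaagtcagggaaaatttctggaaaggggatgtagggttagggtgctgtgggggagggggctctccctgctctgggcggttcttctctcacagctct
Each window holds 1 match, which begins 30 bases before the start in C1qb and 193 bases before it, on the other strand, in C1qc. The motif is common, with a match in 23.3% of all 32851 such windows and in 6 of the 22 complement genes that had a window. The motif TTCNNNGAA of STAT factors and the core of the interferon-stimulated response element, searched on both strands, matched 7.02% and 2.98% of all windows and 3 and 2 of the 22 genes. The shares of windows and the counts of genes are in unlike units, since a match in any window of a gene counted for that gene. A match is a run of letters and not a measured binding site.

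C1ra and C1s1, the proteases of the complex, rose with another order of lung samples. C1ra stood at 133, 73.3 and 176 CPM in lung and at 6.35, 2.30 and 1.63 CPM in the cell line. C1s1 stood at 191, 100.3 and 217 CPM in lung and at 4.85, 1.90 and 1.42 CPM in the cell line. Lung replicate 2 was the lowest of its group for both proteases and the highest for the C1q chains, so the ratio of C1qa to C1ra in TPM was 13.2 there against 3.88 and 2.41 in replicates 1 and 3. The transcripts of the proteases are longer, at 2981 and 2880 bases weighted by counts, than those of C1q, at 1040 to 1202 bases. Log2 fold changes were 5.20 (SE 0.62) for C1ra and 5.95 (SE 0.59) for C1s1, with edgeR adjusted p = 0.000278 and 0.000119. Without cell line replicate 1, the highest of its group, they were 6.00 and 6.66. C1ra was below C1s1 in every lung sample, with a TPM ratio of 0.637 to 0.741. In the cell line it was 1.12 to 1.18. Reads of C1ra and C1s1 can be split with their close copies C1rb and C1s2, which had at most 0.468 CPM in any sample.

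Macrophages are the usual source of C1q, and most of their markers were also higher in lung. Of 10 macrophage and monocyte markers 8 were higher in lung, with a summed level of 7182 to 9199 CPM in lung and 204 to 317 CPM in the cell line. The sums rest on different genes, since Lyz2 stood at 5919 to 7943 CPM in lung and 31.4 to 56.2 CPM in the cell line, while Mrc1, a mannose receptor, stood at 47.5 to 127 CPM in lung and at 31.3, 162.8 and 173 CPM in the cell line. Lyz2, Ms4a7, Apoe, Cd14 and Fcgr1 were highest in lung replicate 2, as the C1q genes were. Adgre1, Csf1r, Mrc1 and Mertk were lowest there, and Cd68 was lowest in replicate 1. The cell line sum was lowest in replicate 1, where the C1q genes were highest, but Mrc1 set that order. Adgre1, Csf1r, Cd68, Lyz2, Mertk, Apoe and Cd14 were highest in cell line replicate 1, and Ms4a7 and Fcgr1 were lowest there. Csf1r stood at 19.0, 15.8 and 12.0 CPM in cell line replicates 1, 2 and 3. All 10 alveolar macrophage markers were higher in lung, at 874 to 1157 CPM summed against 8.59 to 10.5 CPM in the cell line. Fabp1, Car4 and Ear1 had 0 counts there. The part of macrophages in the C1q levels was not tested.

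The lectin pathway was the only group with a gene lower in lung. Of its 6 genes 4 were tested, and 3 rose and 1 fell. Colec12, a membrane collectin and scavenger receptor of vessel cells, was the most abundant at 174, 72.1 and 162 CPM in lung and 3.22, 2.02 and 1.11 CPM in the cell line. Its log2 fold change was 6.00 (SE 0.55, edgeR adjusted p = 8.34e-05). Of its lung counts 77.9% were assigned to a transcript that the annotation types as subject to nonsense-mediated decay and 22.0% to a longer coding one and the former took 76.4 to 81.5% among the lung samples. Colec11, a soluble collectin, stood at 0.759, 1.33 and 0.883 CPM in lung and had 3 counts over the cell line samples, a ratio of 19.0 with a 95% exact interval of 6.22 to 94.5 for counting error alone. The fit gave a log2 fold change of 4.12 (SE 0.76, edgeR adjusted p = 0.00246), or 4.88 when cell line replicate 1 was left out.

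Fcna, which encodes ficolin A, a lectin of macrophages, was close between the groups. It stood at 5.55, 20.1 and 8.36 CPM in lung and at 4.53, 4.09 and 2.27 CPM in the cell line. All lung samples were above all cell line samples, but lung replicate 1 only narrowly so. The log2 fold change of 1.64 (SE 0.53, edgeR adjusted p = 0.0327) was 0.88 without lung replicate 2 (edgeR adjusted p = 0.0998). The call was also lost without cell line replicate 1, 2 or 3, at edgeR adjusted p = 0.0594, 0.0694 and 0.108, and by limma-voom.

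Masp1 went the other way. It encodes MASP proteases that cleave the next zymogens of the lectin pathway. It stood at 3.64, 1.64 and 2.60 CPM in lung and at 9.85, 8.29 and 9.43 CPM in the cell line. Every cell line sample was above every lung sample, and the cell line level was 3.49-fold higher. The log2 fold change was -1.81 (SE 0.37, edgeR adjusted p = 0.00433), and it lay between -2.12 and -1.62 when any single sample was left out. Cell line replicates 2 and 3 held 144 and 179 counts.

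The central components C2, C3 and C4b rose by like amounts. C3, the protein on which all pathways meet, stood at 779, 284 and 1295 CPM in lung and at 34.4, 26.0 and 14.8 CPM in the cell line. Lung samples differed by 4.56-fold among themselves, with replicate 2 the lowest, and still did not overlap with the cell line. The log2 fold change was 4.97 (SE 0.64, edgeR adjusted p = 0.000428). C4b, cleaved by C1s to build the classical convertase, stood at 208, 93.2 and 336 CPM in lung and at 7.84, 6.68 and 4.11 CPM in the cell line, a log2 fold change of 5.09 (SE 0.55). The near-identical gene C4a was not analysed here, and reads of the pair cannot be told apart in these counts. C2, the protease of that convertase, stood at 38.8, 20.1 and 54.8 CPM in lung and at 1.68, 1.09 and 0.632 CPM in the cell line, a log2 fold change of 5.04 (SE 0.53). The edgeR adjusted p was 0.000172 for C4b and 0.000149 for C2. The order of lung samples was replicate 3, then 1, then 2 for all of C2, C3 and C4b, and in the cell line replicate 1 was the highest and replicate 3 the lowest for each.

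The alternative pathway genes rose as well (3 of 3), from unlike levels in the cell line. Cfb, which encodes the factor B protease that joins C3b, was the component with the highest cell line level, at 54.2, 44.9 and 47.2 CPM there and 235, 135 and 273 CPM in lung. Its cell line samples lay close together and its rise was among the smallest of the called genes, at 2.13 on the log2 scale (SE 0.32, edgeR adjusted p = 0.000841). In TPM, Cfb stood at 3.07 to 6.02 times the level of C3 in the cell line and at 0.428 to 1.02 times in lung. Within Cfb the assignment to isoforms was unstable, since the transcript Cfb-201 took 71.4, 0 and 25.8% of its counts in cell line replicates 1, 2 and 3, so only the gene total is compared. Cfp, which encodes properdin, the stabiliser of the alternative convertase made by leukocytes, stood at 46.4, 59.7 and 53.0 CPM in lung and at 7.0, 8.12 and 5.27 CPM in the cell line. It was among the most even genes within lung and had a log2 fold change of 2.96 (SE 0.28, edgeR adjusted p = 8.33e-05).

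Cfd, which encodes factor D or adipsin and is a marker of fat cells, was the least even gene in lung. It stood at 10.99, 191.5 and 45.1 CPM in lung, a 17.4-fold range, and at 5 counts over the cell line samples. The fitted log2 fold change was 9.79 (SE 1.43, edgeR adjusted p = 0.000775), and leaving out lung replicate 2 gave 8.18. Leaving out replicate 1 or 3 of the cell line gave 9.16 or 11.28. Markers of adipocytes ran in the same order of samples. Adipoq, the adiponectin gene, stood at 1.64, 24.3 and 7.27 CPM in lung replicates 1, 2 and 3, and Retn, the resistin gene, at 0.919, 11.1 and 2.13 CPM. Fabp4, a fatty acid binding protein also made by vessel cells, stood at 10.2, 100.8 and 27.2 CPM. The summed level of the 6 adipocyte markers was 26.4, 172.7 and 58.4 CPM in lung and 0.518 to 0.632 CPM in the cell line, where Plin1 and Lep had 0 counts. Lep was the marker that did not follow the order, at 0.200, 0.310 and 0.468 CPM. The part of fat tissue in the Cfd level was not tested, and Cfd is also the shortest of the genes at 897 bases.

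**Figure D2:**
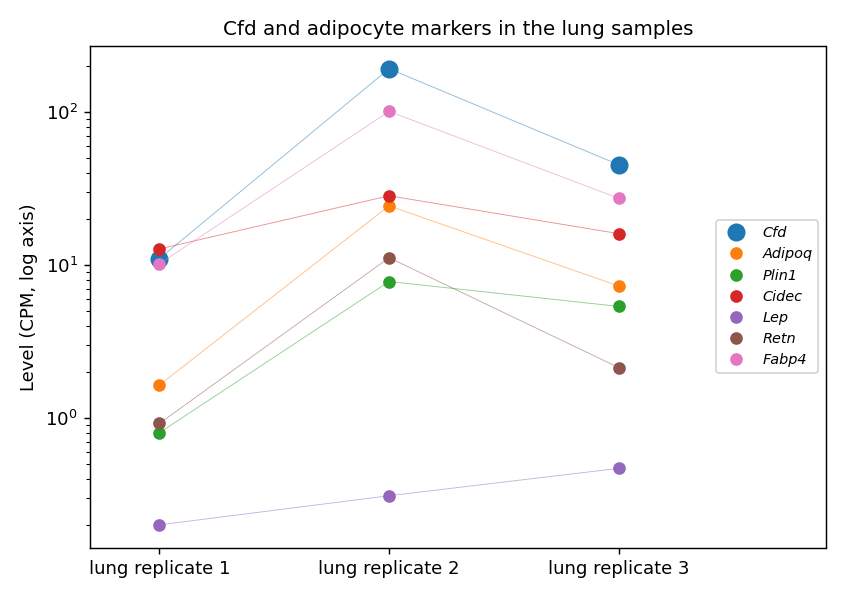
Levels in CPM on a log axis of Cfd (large symbols) and 6 adipocyte markers in the 3 lung samples, with thin lines that join the values of a gene. Cfd and 5 of the markers were highest in replicate 2 and lowest in replicate 1, and Lep, the lowest gene, was highest in replicate 3.

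Of the terminal components, Hc and C7 had the largest fitted fold changes of the 30 tested genes, and C6 had a smaller one. Hc, the mouse gene for C5, stood at 798, 207 and 867 CPM in lung and had 2 counts over the cell line samples, a ratio of 17850 with a 95% exact interval of 4940 to 147400 for counting error. C7, which lets the forming pore insert into the membrane, stood at 110.0, 22.6 and 173.6 CPM in lung and also had 2 counts in the cell line, a ratio of 2853 (789.6 to 23570). Both were near absent from the cell line samples, with edgeR adjusted p = 3.23e-05 for Hc and 0.000112 for C7. The fitted log2 fold change of C7 was 11.30, and 10.68 without lung replicate 3. C6, which binds C5b to start the pore, stood at 49.3, 19.1 and 71.8 CPM in lung and at 1.03, 0.634 and 0.211 CPM in the cell line, a log2 fold change of 6.20 (SE 0.70, edgeR adjusted p = 0.000216). Lung replicate 2 was the lowest for all of Hc, C6 and C7. C7 fell further below its length class than any other of the 30 genes, with a log2 difference from the other lung samples of -2.58 against a median of 0.04 for genes of that quartile of lengths. Of 10 fibroblast markers all were higher in lung, and their summed level was also lowest in replicate 2, at 1998 CPM against 3480 and 3850 CPM. In the cell line that sum was 15.2 to 25.3 CPM and Lum and Inmt had 0 counts. Among lung samples, Col1a1, Col1a2, Col3a1, Pdgfra and Dpt were lowest in replicate 2, and Dcn, Lum and Mfap4 in replicate 1. Tcf21 and Inmt were highest in replicate 2. Col3a1 stood at 1226, 340 and 1351 CPM in lung replicates 1, 2 and 3, and Inmt at 405, 608 and 429 CPM. The part of stromal cells in the C7 level was not tested.

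Per transcript length, Hc and C3 were of like abundance in lung, with a TPM ratio of C3 to Hc of 0.737, 0.987 and 1.20. C6 was below C7 in every lung sample, at 0.390 to 0.784 times its TPM. The later terminal genes C8b and C9 were not analysed here. C8a had 3 counts over the lung samples and was not tested, and C8g stood at 0.902 ± 0.341 CPM in lung (SD, n = 3). Liver is the main source of most of these proteins. Of 9 hepatocyte markers in the table, 5 reached 1 CPM in all lung samples, and the list summed to 32.8 to 130 CPM. Alb, the albumin gene, stood at 10.2, 10.2 and 2.55 CPM. The part of liver transcripts in the levels of the terminal components was not tested.

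**Figure D3:**
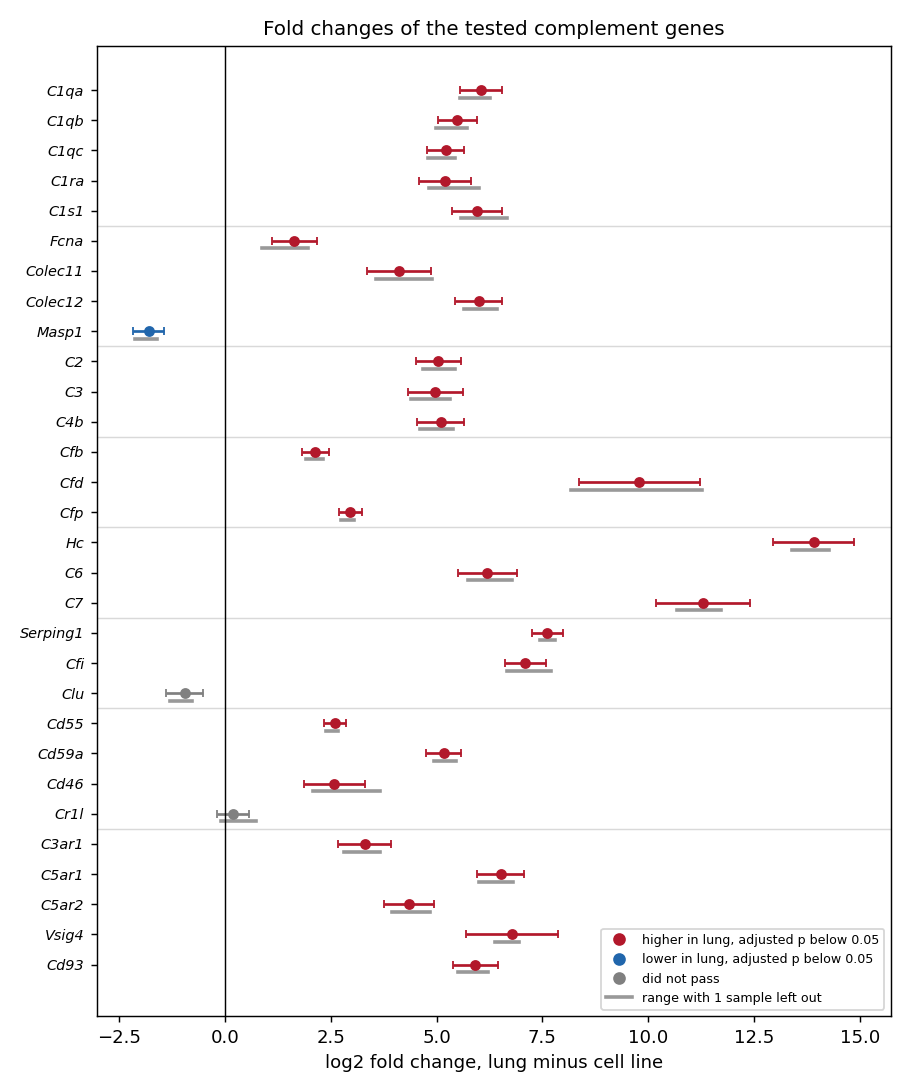
Log2 fold change of each tested complement gene, lung minus cell line, with its SE, and below it in grey the range of estimates when 1 sample was left out. Hc and C7 are farthest to the right, Masp1 is the called gene to the left of 0, and Clu and Cr1l did not pass.

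Of the 3 fluid-phase regulators 2 rose in lung and 1, Clu, did not pass. Serping1, which encodes the C1 inhibitor, stood at 370, 309 and 456 CPM in lung and at 2.38, 1.61 and 1.74 CPM in the cell line. Its replicates lay close together in both groups, and it had the smallest adjusted p of the 30 genes (log2 fold change 7.62, SE 0.36, edgeR adjusted p = 1.18e-05). Cfi, which encodes the protease factor I that inactivates C3b, stood at 27.7, 25.7 and 19.2 CPM in lung and had 10 counts over the cell line. Its log2 fold change of 7.10 (SE 0.48, edgeR adjusted p = 3.10e-05) was 7.69 without cell line replicate 1.

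Clu, which encodes clusterin, an extracellular chaperone that also blocks the terminal pore, was the most abundant complement gene in every sample. It stood at 2603, 2394 and 1708 CPM in lung and at 2139, 5360 and 5453 CPM in the cell line. Cell line replicate 1 lay within the lung range while replicates 2 and 3 were above all lung samples. The log2 fold change was -0.95 (SE 0.43) and missed the threshold (edgeR adjusted p = 0.102). Without cell line replicate 1 it was -1.29 (edgeR adjusted p = 0.0122), and DESeq2 also called it lower (adjusted p = 0.0376). Clu made up 88.1, 96.6 and 97.1% of the summed CPM of all 31 complement genes in cell line replicates 1, 2 and 3, and 24.8 to 45.9% in lung. Without Clu the sum was 4110, 2818 and 5188 CPM in lung and 288, 188 and 163 CPM in the cell line. The epithelial keratin Krt8 showed the same split of cell line samples as Clu, at 996, 3429 and 3454 CPM in replicates 1, 2 and 3. Krt18 did so at 1181, 2595 and 2622 CPM, and Krt19 less so at 593, 857.5 and 862 CPM. Cdh1 was nearly level at 416, 466 and 466 CPM, and Epcam, Cldn4 and Cldn7 were low. The split was not particular to epithelial genes. Mrc1, a macrophage marker, stood at 31.3, 162.8 and 172.5 CPM, and Mcpt8, a basophil marker, at 3.59, 14.9 and 14.2 CPM.

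Membrane regulators protect a cell from its own complement. Mouse cells use Cr1l, known as Crry, where human cells use CD46, and mouse Cd46 is known mainly from testis. Cr1l stood at 75.1, 83.6 and 86.9 CPM in lung and at 116.8, 49.5 and 48.7 CPM in the cell line. The groups overlapped, and the log2 fold change of 0.19 (SE 0.37) did not pass (edgeR adjusted p = 0.694). Cell line replicate 1 decided this, since without it the log2 fold change was 0.72 (edgeR adjusted p = 0.0273), whereas without replicate 2 or 3 it was -0.09 and -0.08. Among several isoforms the transcript Cr1l-201 held 58.4% of the lung and 49.3% of the cell line counts.

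Cd55, which encodes decay-accelerating factor and breaks up convertases, stood at 50.1, 46.2 and 70.6 CPM in lung and at 9.57, 9.56 and 8.43 CPM in the cell line. The cell line samples were nearly level and the rise was 2.60 on the log2 scale (SE 0.27, edgeR adjusted p = 0.000135). Cd59a, which blocks C9 on the membrane, stood at 9.51, 13.4 and 10.9 CPM in lung and at 0.420, 0.230 and 0.263 CPM in the cell line, a log2 fold change of 5.17 (SE 0.41, edgeR adjusted p = 4.51e-05). Its close copy Cd59b had 2 counts over the cell line and 0.820 ± 0.362 CPM in lung. Cd46 was low throughout, at 5.27, 2.57 and 6.34 CPM in lung and 1.59, 0.518 and 0.211 CPM in the cell line. Its log2 fold change of 2.59 (SE 0.72, edgeR adjusted p = 0.0176) was 3.67 without cell line replicate 1, and the call was lost without cell line replicate 2 (edgeR adjusted p = 0.0559). In the cell line Cr1l was thus the highest of the membrane regulators in TPM, at 81.1 ± 40.3 against 7.15 ± 0.747 for Cd55, 0.401 ± 0.247 for Cd59a and 0.220 ± 0.207 for Cd46. In lung Cr1l also came before Cd55 in the mean, at 93.1 ± 11.9 against 46.0 ± 17.4 TPM, but with the length of the longest transcript of each gene the levels were 48.0 and 41.0 TPM.

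Receptors of complement fragments all rose (5 of 5). C3ar1, the receptor of the anaphylatoxin C3a, stood at 24.1, 14.5 and 28.1 CPM in lung and at 0.513, 2.88 and 3.37 CPM in the cell line. It was the receptor whose cell line replicate 1 was the lowest, and its log2 fold change was 3.30 (SE 0.63, edgeR adjusted p = 0.00303). C5ar1, the main receptor of C5a on neutrophils and macrophages, stood at 18.9, 19.2 and 30.0 CPM in lung and had 14 counts over the cell line samples, a log2 fold change of 6.52 (SE 0.56, edgeR adjusted p = 6.23e-05). C5ar2, a second C5a receptor with little G protein signalling, stood at 4.32, 3.36 and 7.32 CPM in lung and also had 14 counts in the cell line, a log2 fold change of 4.35 (SE 0.59). Its adjusted p by edgeR was 0.000536.

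Cd93, a glycoprotein of endothelial and myeloid cells once described as a C1q receptor, was the most abundant receptor in CPM, at 242, 97.6 and 337 CPM in lung and 4.34, 3.92 and 2.95 CPM in the cell line. Its log2 fold change was 5.91 (SE 0.53, edgeR adjusted p = 7.63e-05). All 10 endothelial markers were higher in lung too, summing to 1450 to 2571 CPM against 26.1 to 32.1 CPM in the cell line. None of them was at 0 counts over the 3 cell line samples together. The sum was lowest in lung replicate 2, but Cldn5, Egfl7 and Emcn were highest there while the other markers were lowest. The part of endothelial cells in the Cd93 level was not tested. Vsig4, the C3b receptor of resident tissue macrophages, was barely expressed in lung at 0.519, 0.929 and 0.519 CPM and at 0 counts in all cell line samples. Against 3 counts over that group it was at least 12.7-fold higher in lung (edgeR adjusted p = 0.00306).

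Lung replicate 2 was the lowest lung sample for 17 and the highest for 9 of the 30 tested genes, near the shares of all genes, 55.3% and 35.3%. It was the highest lung sample for all 9 tested complement genes in the shortest quartile of lengths, and the lowest for all 12 genes of the third and the longest quartile (5 of 5 and 7 of 7). The median log2 difference from replicates 1 and 3 was 0.91 for the former, and -1.02 and -1.50 for the latter. The medians over all tested genes of these classes were 0.71, -0.46 and -0.96. How often lung replicate 2 was the highest or lowest over all genes of each class was not counted. Of the 9 genes in the second quartile it was the lowest for 5 and the highest for 0, with a median of -0.36 against 0.04 over all genes of that class. Every one of the 12 longer genes other than C3ar1 lay below the median of its class. The part of this length trend in the spread of these genes was not tested. Without lung replicate 2 the counts were 26 higher and 1 lower, against 5148 higher and 3773 lower over all 15531 genes of that fit.

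**Figure D4:**
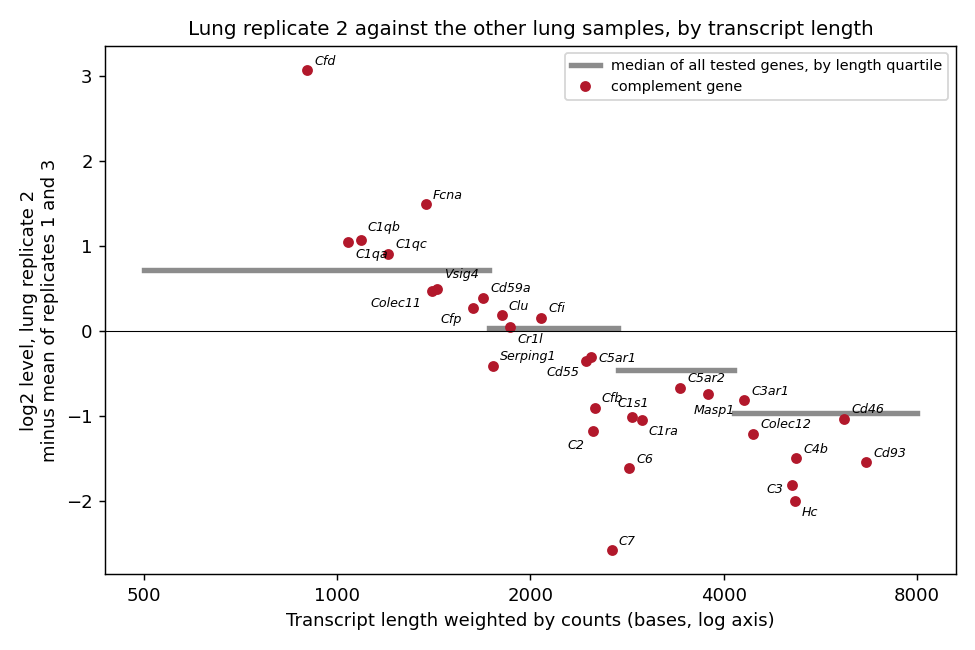
Log2 level in lung replicate 2 minus the mean of replicates 1 and 3 (on CPM plus 0.5) against transcript length in bases, for the 30 tested complement genes. Grey lines give the median of all tested genes by quartile of length over the drawn range. Short genes such as C1qa lie above 0, long genes such as C3 below it, and Cfd and C7 are farthest from the grey lines.

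The low levels of complement genes in the cell line differed among its samples. Replicate 1 was the highest or tied for the highest in 23 of the 30 genes, against 47.6% of all genes counted in the same way. Among the 30 genes the tie was Vsig4, at 0 counts in all 3 samples. Replicates 1, 2 and 3 stood in falling order in 16 of 30, against 22.9% of all genes. Between the closest pair, replicates 2 and 3, the ratio of replicate 3 to 2 was computed for the 18 genes with 50 or more counts in the pair, with 95% exact intervals that cover counting error alone. Of these, 7 had an interval below 1, with ratios from 0.549 for Colec12 (0.304 to 0.969) to 0.649 for Cfp (0.497 to 0.844). C3 at 0.569 (0.488 to 0.661), C1qa, C1qc, C4b and Fcna made up the rest. For 10 genes the interval included 1. Of these C1ra, C1s1, Cd93 and C1qb had ratios of 0.709, 0.748, 0.753 and 0.756, and Serping1 and C3ar1 of 1.08 and 1.17. The others were Cfb at 1.05 (0.954 to 1.16), Cr1l at 0.983 (0.895 to 1.08), Cd55 at 0.882 (0.705 to 1.10) and Masp1 at 1.14 (0.908 to 1.43). Clu, with by far the most counts, was the 1 gene with an interval above 1, at 1.02 (1.01 to 1.03). The same intervals were not computed over all genes, so these counts do not set complement genes apart from others.

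Marker lists gave the same ratio for other cell types in the cell line samples. It was 0.582 for the summed B and plasma cell markers, 0.558 for T cell markers, 0.655 for neutrophil markers and 0.687 for fibroblast markers. It was 0.813 for endothelial, 0.819 for alveolar macrophage, 0.911 for macrophage and monocyte and 0.947 for smooth muscle and pericyte markers, and 1.01 for the epithelial list. In the macrophage and monocyte list, Mrc1 made up 162.8 of 316.9 CPM in replicate 2 and 172.5 of 288.5 CPM in replicate 3. Lyz2 stood at 55.1 and 31.4 CPM and Apoe at 14.6 and 9.11 CPM in these replicates. All markers of that list but Mrc1 and Ms4a7 were lower in replicate 3, Cd14 only slightly so. T cell markers summed to 12.5 to 25.7 CPM in the cell line against 195.5 to 219 CPM in lung, with none of the 10 at 0 counts in any cell line sample. Neutrophil markers summed to 3.06 to 5.55 against 208 to 350 CPM, with 9 of the 9 tested higher in lung. Whether the complement transcripts of the cell line samples came from tumour cells or from others was not tested.

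**Figure D5:**
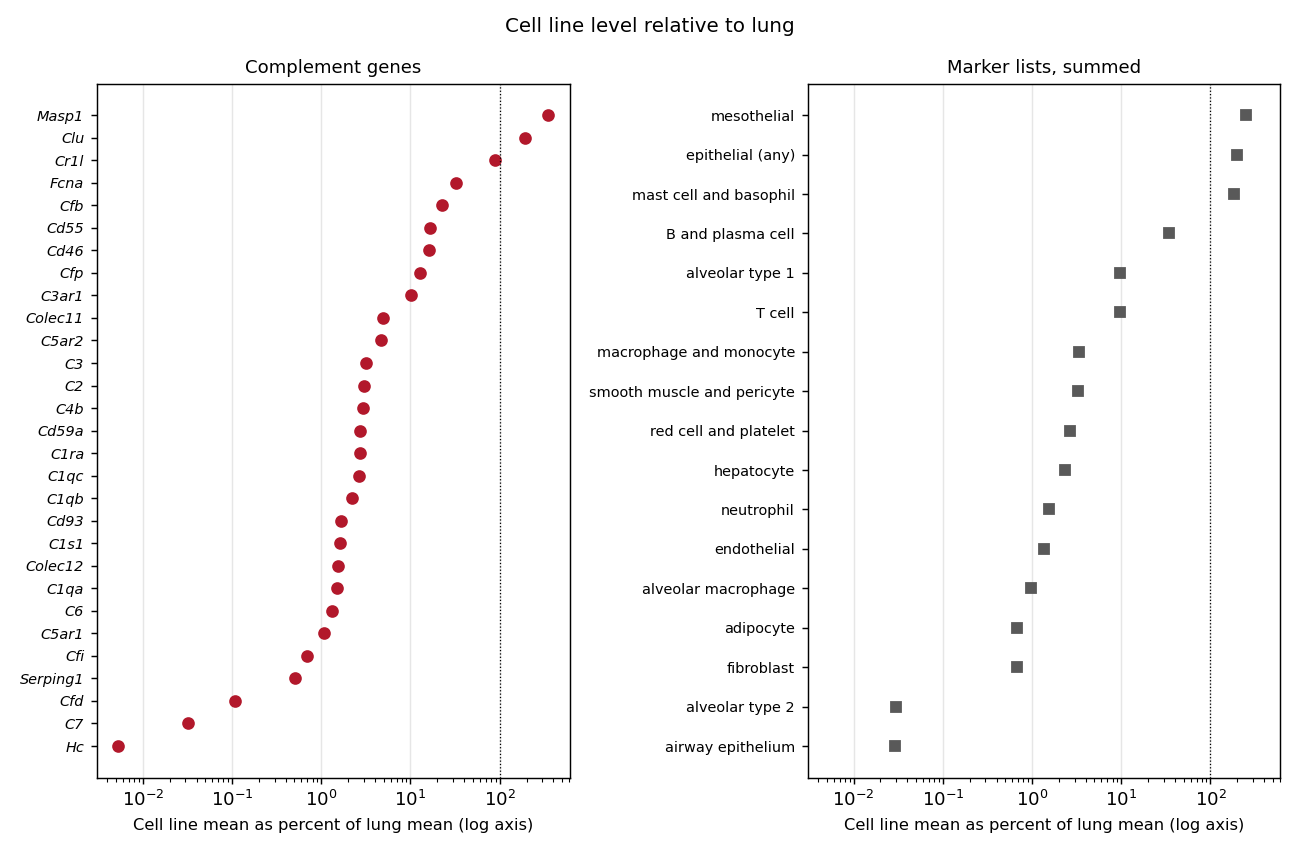
Cell line mean as a percent of the lung mean, on a log axis, for complement genes with any count in the cell line (left) and for the summed levels of 17 marker lists (right), with a dotted line at equal levels. Masp1 and Clu lie to the right of the line at 350% and 193%, and C1qa, C1qb and C1qc lie between 1.5 and 2.68%.

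Relative to lung, 22 of the 31 genes were under 5% in the cell line. C1qa, C1qb and C1qc stood at 1.5, 2.22 and 2.68% of their lung mean, near C3 at 3.19%, C2 at 3.00% and C4b at 2.92%. The summed macrophage and monocyte list stood at 3.38%, with a median of 5.31% over its genes. Among other lists the sums stood at 0.978% for alveolar macrophage, 0.673% for fibroblast and 34.3% for B and plasma cell markers. Complement genes above 10% were C3ar1 at 10.2%, Cfp at 12.8%, Cd46 at 16.3%, Cd55 at 16.5%, Cfb at 22.8%, Fcna at 32% and Cr1l at 87.6%, with Masp1 and Clu at 350% and 193%. Serping1 was among the lowest at 0.505%.

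Other genes of the pathway were taken from a further list of 39 symbols. Of these 32 were in the count table and 21 were tested. In lung 16 were higher and 2 lower, and 3 did not pass. Over all genes tested, 31.3% were higher and 17.5% lower. The median log2 fold change was 2.64 for the list and 0.08 over all genes. Susd4, a membrane regulator of complement, stood at 11.6, 11.9 and 14.7 CPM in lung and at 0 counts in all cell line samples, which makes it at least 242-fold higher against 3 counts over that group. C1rl, a protease related to C1r, had lung and cell line means of 11.5 ± 3.76 and 1.04 ± 0.261 CPM (SD, n = 3) and a log2 fold change of 3.46.

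Integrin subunits of the receptors for C3 fragments rose with edgeR adjusted p of 0.000332 or less. Itgam, the alpha chain of complement receptor 3, stood at 32.6 ± 20.7 against 0.926 ± 0.357 CPM, and Itgax, that of complement receptor 4, at 104 ± 47.2 against 2.19 ± 0.532 CPM. Their shared beta chain Itgb2 stood at 144.5 ± 56.4 against 6.95 ± 1.47 CPM. Cr2, the C3d receptor of B cells, differed least, at 17.1, 35.2 and 21.9 CPM in lung and 14.5, 13.0 and 8.59 CPM in the cell line. The difference was 1.04 on the log2 scale (SE 0.35, edgeR adjusted p = 0.0380), and without lung replicate 2 it was 0.64 (edgeR adjusted p = 0.0927). The Cr2 call was also lost without lung replicate 3 (edgeR adjusted p = 0.0547), and without replicate 2 (0.0978) or 3 (0.151) of the cell line. Scarf1, a scavenger receptor that binds C1q, stood at 23.9 ± 2.99 against 0.461 ± 0.145 CPM. Thbd, the thrombomodulin gene, and Lrp1, an endocytic receptor, had log2 fold changes of 2.32 and 2.02, with adjusted p = 0.00583 and 0.00481 by edgeR.

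C1qbp and Megf10 were the genes of that list that fell in lung. C1qbp, a mitochondrial protein named for its binding of C1q heads, stood at 75.4, 130.6 and 51.6 CPM in lung and at 222, 232 and 244 CPM in the cell line, with a log2 fold change of -1.44 (SE 0.36, edgeR adjusted p = 0.0108). Megf10, a phagocytic receptor that binds C1q, stood at 2.84, 1.28 and 1.66 CPM in lung and at 24.9, 19.0 and 18.8 CPM in the cell line, with a log2 fold change of -3.43 (SE 0.38, edgeR adjusted p = 0.000187). For both of them every cell line sample was above every lung sample, as for Masp1.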

How the data were processed

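The submitters' processing notes name the build GRCm39 and list, with no role, Salmon 1.4.0 beside FastQC 0.11.9 and DESeq2 1.32.0. Values deposited by the authors are estimated counts for each transcript and sample, not normalized. Of 76776 transcripts 99.67% matched GENCODE M21, an annotation of another build used for names and lengths only, and were summed to 20687 symbols and rounded. The 255 others held 0.11 to 0.42% of a sample's counts and were left out. Genes were tested with edgeR 4.0.16 in R 4.3.3 (quasi-likelihood, robust, TMM scaling, filter by group, group alone in the model), with Benjamini-Hochberg adjustment over 15212 genes, and the code was tested on simulated data. The SE given with an edgeR log2 fold change is its absolute value over the square root of the test's F statistic. TPM here are counts over transcript length, rescaled per sample. Changes in isoform length between groups were not corrected for.

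The alternatives were DESeq2 1.42.0, limma 3.58.1 (voom), other scalings and filters, fold minimums, a replicate block and samples left out. The members and lists were chosen with earlier results of these data known. Named were all members and, of the further list, genes past the threshold with 10 CPM or more in the higher group or lower in lung. C8g, Cd59b, other copies and single marker genes were named after their values were seen. 1 gene of the further list that the rule would name is not reported here. Depth limits low genes, and intervals and floors cover counting error only.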

Additional observations from a re-analysis of the deposited data

How the results depend on the processing

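The count of 27 complement genes higher in lung was between 25 and 28 under every alternative except a filter of 10 or more counts in all 6 samples, which left 19 genes tested and 16 higher. For the further list of 39 genes the same filter left 12 tested and 8 higher, against 16. Over all genes it left 11994 tested and 2555 higher, against 4758 of 15212 in the main fit. Under the other alternatives between 3787 and 6657 genes were higher over all genes. The count of complement genes lower in lung, 1, was 2 by DESeq2 and without lung replicate 2 and cell line replicate 1 together. It was 1 to 2 when single samples were left out, and Clu was the gene added to this count each time. Over all genes, DESeq2 called 3217 lower, against 2664 in the main fit. In the further list 1 gene was lower, against 2, when tested against a 2-fold change with glmTreat, which called 703 genes lower over all genes. The log2 fold change of Cr1l lay between -0.089 and 0.72 when single samples were left out, and changed sign without cell line replicate 2 (-0.089) or 3 (-0.082). Scaling by library size alone kept all 28 calls and raised the median log2 fold change of all genes from 0.08 to 0.31. Without lung replicate 2 and cell line replicate 1 together, Cr1l and Clu were added to the calls. In that fit 11 of the 30 log2 fold changes moved by more than 1.5 times, by between -2.20 and 1.399. It called 6657 of 15404 genes higher and 5425 lower, against 4758 and 2664 of 15212 in the main fit. That fit takes its spread from the closest pairs. Same-numbered samples did not deviate together (correlations across genes -0.042, 0.082 and -0.083), so the numbers were not taken as pairs, and with the replicate block 27 genes were higher and 1 lower, the same 28 calls. The longest transcript length in place of the weighted one moved the level per length of 11 values by more than their SD, among them Cr1l in lung, from 93.1 to 48.0 TPM. Depth limits Masp2, Vsig4, Colec11 and the cell line levels of Hc, C7, Cfd and Cfi, which rest on 10 counts or fewer per group there.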
